A study of Mus musculus with 9 samples.

Results

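The BCL2 family decides whether a cell keeps or opens its mitochondria on the way to apoptosis, and 10 of its genes were followed in the *Atf4* null lens. The rows whose mouse annotation symbol was *Bcl2*, *Bcl2l1*, *Mcl1*, *Bax*, *Bak1*, *Bbc3*, *Pmaip1*, *Bcl2l11*, *Bid* or *Bmf* were taken, which gave 1 row for each symbol, 10 of 55416 genes counted. Whole lens RNA was sequenced at E16.5 from 4 *Atf4* null and 5 wildtype littermate embryos, with 1 pair of lenses and 1 library for each embryo. The null embryos were homozygous for the germline *Atf4tm1Tow* allele, in which a neomycin phosphotransferase cassette replaces a pair of *Atf4* exons in every tissue, and came from heterozygous intercrosses on a mixed C57Bl/6/129 background that the wildtype embryos share. Both sexes were used, no agent was given, and the colony was not typed for the *Bfsp2* deletion that the 129 strain carries. The comparison asks whether the transcripts of the survival and death genes of this family differ between lenses with and without ATF4.

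As background, the family falls into 3 kinds of protein. BCL2, BCL-xL (encoded by *Bcl2l1*) and MCL1 keep cells alive by holding the others in check, BAX and BAK form the pores in the outer mitochondrial membrane that release cytochrome c, and the BH3-only proteins PUMA (*Bbc3*), NOXA (*Pmaip1*), BIM (*Bcl2l11*), BID and BMF sense damage and set the pore formers free. Several of these genes are controlled at the level of transcription, *Bbc3*, *Pmaip1* and *Bax* by P53 and *Bcl2l11* and *Bbc3* by FOXO factors, while much of the regulation of MCL1, BID and BAX is at the level of the protein, which RNA does not show. In the lens, an avascular tissue that keeps its cells for life, epithelial survival depends on this balance and fiber cells lose their organelles without dying.

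Between 7440807 and 8906996 counts per library lay on genes. *Atf4* itself, counted over all its exons, was at 119 to 155 CPM (a gene's share of the library total, scaled by TMM factors) in wildtype and 0.582 to 10.6 CPM in *Atf4* null libraries, so no library went against its genotype label. Of 12 lens fiber markers, *Lim2* was at 0 in all 9 libraries, for a reason that was not tested. The other 11 were detected, but *Lgsn* was at 0 CPM in all 4 *Atf4* null libraries and in wildtype replicate 2, and at most 8.1 CPM elsewhere. Wildtype replicate 5 stood apart, with a summed 4640 CPM for 10 skeletal muscle markers and 14400 CPM for 8 mesenchyme markers, against at most 48.8 and 554 CPM in the other 8 libraries, and with 72500 CPM for the 12 lens fiber markers against 125000 to 134000 CPM in the other wildtype libraries. The fiber markers summed to 54800 to 129000 CPM in *Atf4* null libraries, with 3 of 11 tested called lower (*Crygs*, *Bfsp1* and the sparse *Lgsn*). The 9 lens epithelium markers summed to 2150 to 2300 CPM in *Atf4* null libraries, with 4 called lower and 1 higher. Those sums were below the 2650 to 2910 CPM of wildtype replicates 1 to 4 but above the 1900 CPM of wildtype replicate 5. Of the vascular endothelium markers, at 304 to 399 CPM in wildtype replicates 1 to 4, 555 CPM in replicate 5 and 149 to 340 CPM in *Atf4* null libraries, 1 was called lower, as was 1 of the blood markers, at 224 to 734 CPM and 179 to 244 CPM. Of the 8 mesenchyme markers, 5 (*Col1a1*, *Col1a2*, *Dcn*, *Lum* and *Postn*) were higher in every *Atf4* null library than in any of wildtype replicates 1 to 4. They were highest in replicate 5, as with the collagen gene *Col1a1* at 93.6 to 146, 8.99 to 29.1 and 6600 CPM. *Pdgfra* went the other way and was called lower, at 6.7 to 26.2 CPM in *Atf4* null libraries and 180 to 227 CPM in wildtype replicates 1 to 4. It made up most of the mesenchyme sum of those 4 wildtype libraries, 243 to 267 CPM, so the sum does not show the rise of the 5. Of the skeletal muscle markers *Tnni1* was called lower, at 0.48 to 3.62 CPM in *Atf4* null libraries, below the 11.1 to 16.7 CPM of wildtype replicates 1 to 4 and the 37.9 CPM of replicate 5. The part of these shifts in the members' differences was not tested. Markers of neural retina also moved with genotype. Their 9 genes summed to 206 to 307 CPM in wildtype and 332 to 867 CPM in *Atf4* null libraries, 5 of the 9 were called higher, and none was at 0 in all libraries. Over all genes tested, 2.23% were called higher and 3.67% lower. The 8 macrophage markers summed to 93.5 to 106 CPM and 93.5 to 120 CPM in wildtype and *Atf4* null libraries.

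Of the 10 members, *Bbc3* alone passed the test, and it was higher in *Atf4* null lenses. All 10 were abundant enough to be tested, and 1 of them fell under an adjusted p of 0.05 in the quasi-likelihood F test of edgeR (Benjamini-Hochberg, 14903 genes), against 5.9% of all genes tested. By direction, 1 member was higher, against 2.23% of all genes, and 0 were lower with edgeR or DESeq2, against 3.67%, although *Bmf* was lower at an unadjusted p under 0.05. For *Bbc3* and *Bax*, 2 of the 10, every *Atf4* null library lay above every wildtype library, and the groups did not overlap in this direction for 4.65% of all genes, or in either direction for 10.2%. An unadjusted p below 0.05 was reached by 4 of the 10 members (*Bbc3*, *Bax*, *Bmf* and *Bcl2l1*), against 19.6% of all genes. The fitted log2 fold change was above 0 for 7 of the 10 and for 50.1% of all genes, with a median of 0.19 over the members and 0.001 over all genes. Because whole lenses were sequenced, fewer cells of a type and less RNA per cell cannot be told apart in any of these values.

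**Figure D1:**
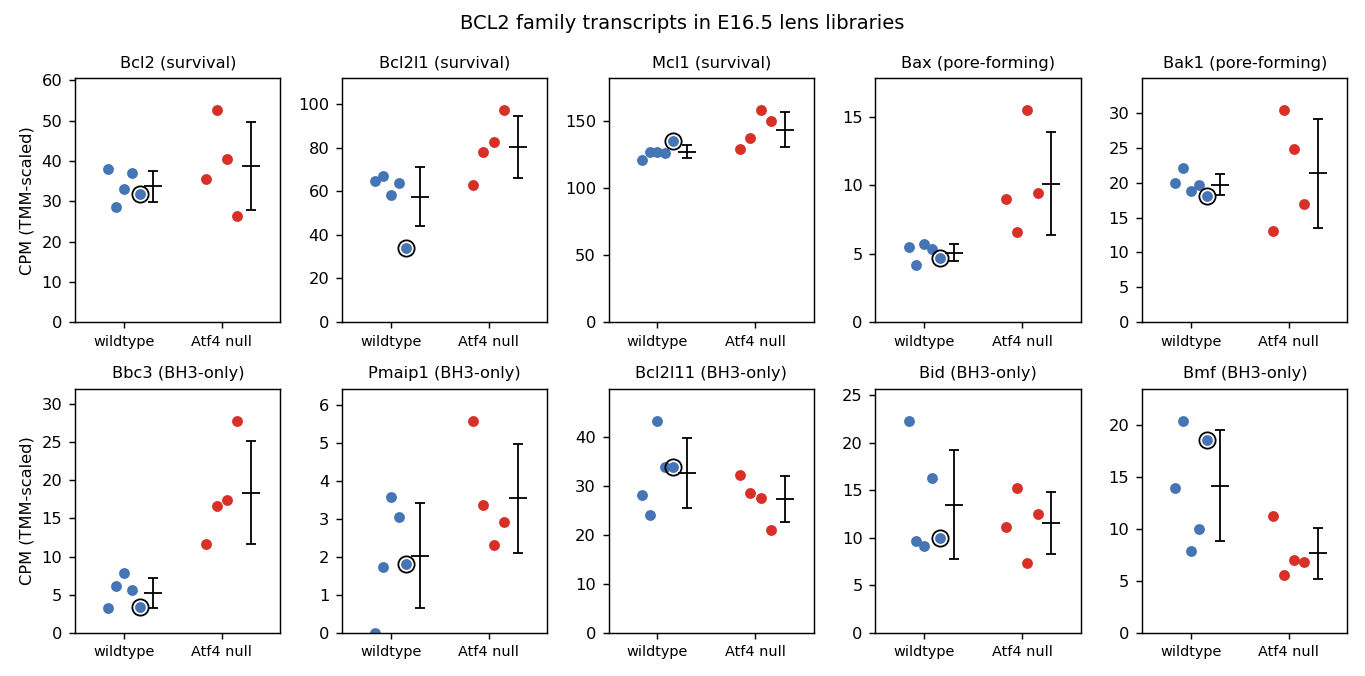
CPM of the 10 BCL2 family genes in each library (blue, 5 wildtype; red, 4 Atf4 null; ringed, wildtype replicate 5), with the mean and SD beside each group. Only Bbc3 and Bax have all Atf4 null libraries above all wildtype libraries, with Bbc3 at 11.7 to 27.8 CPM against 3.21 to 7.91 CPM.

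*Bbc3* (ENSMUSG00000002083, GRCm39 chromosome 7 from 16042318 to 16052130 on the plus strand) encodes PUMA, a BH3-only protein that binds all of the survival proteins. Its CPM were 3.21, 6.17, 7.91, 5.57 and 3.43 in wildtype replicates 1 to 5 and 11.7, 16.7, 17.4 and 27.8 in *Atf4* null replicates 1 to 4. The lowest *Atf4* null library was therefore above the highest wildtype library, and the spread within each group was of similar relative size, with coefficients of variation of 37.4% and 36.8%. Expression rose 3.49-fold, from a mean of 5.26 ± 1.97 CPM (SD, n = 5) to 18.4 ± 6.78 CPM (SD, n = 4) without ATF4. On the log2 scale the rise was 1.80 with a standard error of 0.34 (edgeR, adjusted p = 0.00687), and an exact permutation test of this gene gave p = 0.00794, two-sided, the smallest p that 4 against 5 libraries allow. Over the alternatives tried, the log2 fold change stayed between 1.53 and 2.00 and the adjusted p (edgeR or DESeq2) between 3.27e-05 and 0.025. Without wildtype replicate 5 the log2 fold change was 1.69. These values rest on 25 to 191 counts per library. The retina marker sums of *Atf4* null replicates 1 to 4 were 867, 529, 606 and 332 CPM. The highest sum was in the library with the lowest *Bbc3*, and the lowest sum in the library with the highest. The lens fiber marker sums of *Atf4* null replicates 1 to 4 were 54800, 84500, 81500 and 129000 CPM, lowest and highest in the same libraries as *Bbc3*. In wildtype replicates 1 to 5 these sums were 134000, 125000, 129000, 131000 and 72500 CPM. The part of the retina or fiber transcripts in the *Bbc3* difference was not tested.

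*Bax* (ENSMUSG00000003873, chromosome 7 from 45111015 to 45116325 on the minus strand) encodes one of the pore formers. Its CPM were 5.52, 4.20, 5.68, 5.32 and 4.71 in wildtype replicates 1 to 5 and 8.97, 6.60, 15.5 and 9.46 in *Atf4* null replicates 1 to 4. The wildtype libraries were tightly grouped, the *Atf4* null libraries were not, and the groups did not overlap. From 5.09 ± 0.618 CPM (SD, n = 5) to 10.1 ± 3.77 CPM (SD, n = 4), the fitted ratio was 1.99 and the log2 fold change 0.99 (standard error 0.33). In edgeR the unadjusted p was 0.00947 and the adjusted p was 0.103. The exact permutation test on this single gene gave p = 0.00794, two-sided and not adjusted for other genes. No alternative brought *Bax* under the adjusted threshold (adjusted p from 0.0536 to 0.336, edgeR or DESeq2). Its log2 fold change was lowest, 0.71, without *Atf4* null replicate 3. It rests on 34 to 141 counts per library, and 10.3% of its exon bases are shared with *Gm45808*, a gene on the same strand that was listed at 0 counts, and how reads over both were assigned was not tested. *Bak1* (ENSMUSG00000057789, chromosome 17 from 27238784 to 27247983 on the minus strand), the other pore former, stood at 19.9, 22.1, 18.8, 19.6 and 18.1 CPM in wildtype replicates 1 to 5. In *Atf4* null replicates 1 to 4 it was at 13.1, 30.4, 24.8 and 17.0 CPM, which lie on both sides of the wildtype range. The log2 fold change was 0.11, with 2 standard errors reaching from -0.37 to 0.60 (adjusted p = 0.863, edgeR), and it was -0.11 without *Atf4* null replicate 2.

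The stretches just before the canonical transcript starts of *Bbc3* and *Bax* are shown because these 2 genes separated the genotypes without overlap and each holds a P53 half-site, the 10-base element that P53 binds in pairs. Each sequence is the 230 bases before the start of the canonical GENCODE transcript in GRCm39, written 5′ to 3′ on the strand of the gene, with the half-site in capitals. For *Bbc3* this is chr7:16042441-16042670 (plus strand), inside the annotated gene, which begins earlier with other transcripts, with the half-site 43 to 34 bases before the start, and for *Bax* it is chr7:45116326-45116555 (minus strand), with the half-site 198 to 189 bases before the start.
Bbc3: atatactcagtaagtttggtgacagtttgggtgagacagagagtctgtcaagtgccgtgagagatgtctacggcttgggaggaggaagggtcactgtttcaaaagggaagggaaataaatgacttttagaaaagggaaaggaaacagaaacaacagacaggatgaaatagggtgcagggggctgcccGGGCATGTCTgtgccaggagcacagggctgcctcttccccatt
Bax: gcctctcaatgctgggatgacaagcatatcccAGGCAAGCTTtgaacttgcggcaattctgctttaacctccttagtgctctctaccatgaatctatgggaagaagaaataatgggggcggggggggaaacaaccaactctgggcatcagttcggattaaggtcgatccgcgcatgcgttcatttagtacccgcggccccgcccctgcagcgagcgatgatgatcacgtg

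In the window from 250 bases before to 50 bases after the start, 3 of the 10 members held a P53 half-site on either strand (*Bbc3*, *Bax* and *Pmaip1*), as did 7.89% of 21770 protein-coding starts. Within 1000 bases on either side the same 3 of 10 held one, against 45.6% of all starts. The full P53 site, a pair of half-sites with a spacer of 0 to 13 bases, was found in 0 of the 10 within 1000 bases on either side, and in 0.492% of all starts. The ATF4 element TGATGNAA was in 0 of the 10 in the narrow window, where 3.84% of all starts hold it, and in 2 (*Bmf* and *Pmaip1*) in the wide window, where 22% do. The AP-1 element TGANTCA was in 0 of the 10 in the narrow window, against 7.14% of all starts, and in 3 (*Bbc3*, *Bid* and *Mcl1*) in the wide window, against 37.1%. These matches describe letters in a window, and no binding was measured.

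**Figure D2:**
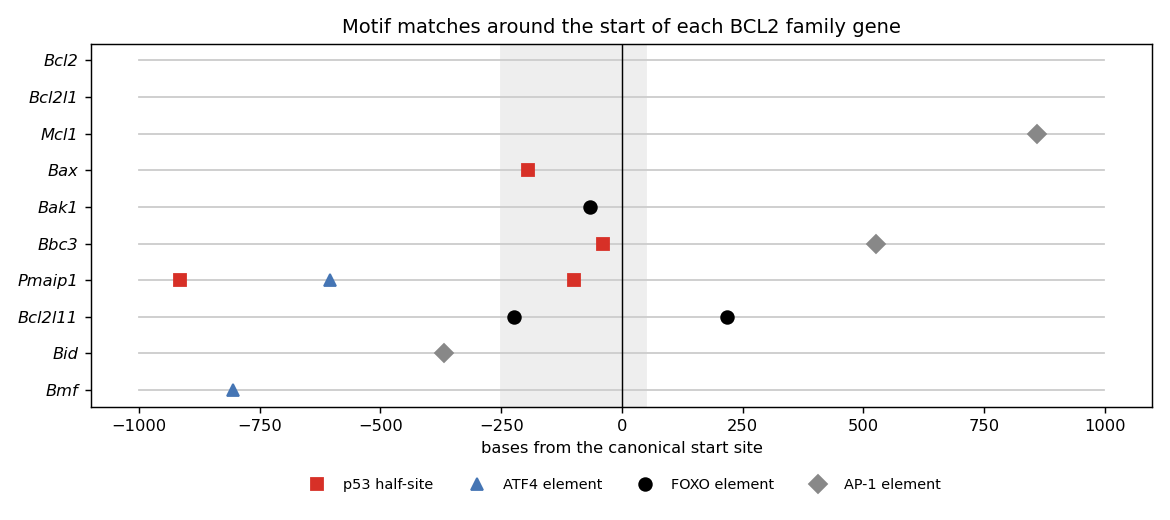
Positions of motif matches on both strands within 1000 bases of the canonical start of each member, in bases from the start, with the window from 250 before to 50 after shaded (squares, P53 half-site; triangles, TGATGNAA; circles, TGTTTAC; diamonds, TGANTCA). Bbc3, Bax and Pmaip1 are the 3 members with a P53 half-site in the shaded window.

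The other 4 BH3-only genes did not pass the test. *Bcl2l11* (ENSMUSG00000027381, chromosome 2 from 127967958 to 128004476 on the plus strand) encodes BIM, the BH3-only protein best known for killing cells deprived of growth factors. It was at 28.0, 24.1, 43.2, 33.8 and 33.8 CPM in wildtype and 32.2, 28.6, 27.5 and 21.0 CPM in *Atf4* null replicates, in order. The ranges overlapped, with a log2 fold change of -0.25 (2 standard errors from -0.66 to 0.15, adjusted p = 0.561, edgeR), which leaves out a rise as large as that of *Bbc3*. The 230 bases before its start, chr2:127967728-127967957 (plus strand), are shown because they hold the FOXO element TGTTTAC, here read on the opposite strand and in capitals, 227 to 221 bases before the start.
Bcl2l11: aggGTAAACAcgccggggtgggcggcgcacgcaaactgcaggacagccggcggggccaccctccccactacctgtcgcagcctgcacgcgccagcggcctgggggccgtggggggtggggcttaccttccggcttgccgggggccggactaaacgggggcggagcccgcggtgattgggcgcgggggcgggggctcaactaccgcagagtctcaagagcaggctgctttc
This element was in 2 of the 10 members in the window from 250 before to 50 after the start (*Bcl2l11* and *Bak1*) and in 3.15% of all starts, and within 1000 bases on either side it was in the same 2 of 10, against 20.8%.

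*Bmf* (ENSMUSG00000040093, chromosome 2 from 118359238 to 118380177 on the minus strand), whose protein is tethered to the actomyosin cytoskeleton and reports loss of attachment, was the member with the most negative fitted change. Its CPM were 13.9, 20.4, 7.91, 10 and 18.6 in wildtype and 11.2, 5.52, 7.02 and 6.84 in *Atf4* null replicates. In 3 of 4 *Atf4* null libraries it lay below all wildtype libraries, and *Atf4* null replicate 1 lay within their range. The mean was 14.2 ± 5.36 CPM (SD, n = 5) against 7.64 ± 2.44 CPM (SD, n = 4), with a log2 fold change of -0.89 and a standard error of 0.34 (edgeR, adjusted p = 0.155), and over the alternatives the adjusted p ran from 0.096 to 0.323 (edgeR or DESeq2). Wildtype replicate 5, with its muscle and mesenchyme transcripts, had the second highest value, and without it the log2 fold change was -0.76. *Bid* (ENSMUSG00000004446, chromosome 6 from 120862525 to 120894171 on the minus strand) links death receptors to the mitochondria once caspase-8 has cut its protein. It was at 22.3, 9.63, 9.14, 16.3 and 9.96 CPM in wildtype and 11.1, 15.2, 7.35 and 12.5 CPM in *Atf4* null replicates, which overlap (log2 fold change -0.22, 2 standard errors from -0.88 to 0.43, adjusted p = 0.785, edgeR), and without wildtype replicate 1 the value was 0.03. On the opposite strand *Bcl2l13* shares 31.2% of the exon bases of *Bid*. The library kit is stranded, but the strand setting of the counting is not given in the sources used here, so reads from these shared bases may have been left uncounted for both.

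*Pmaip1* (ENSMUSG00000024521, chromosome 18 from 66591604 to 66598636 on the plus strand), which encodes NOXA, a partner of MCL1, had the lowest mean CPM of the members. Its CPM were 0, 1.73, 3.58, 3.04 and 1.82 in wildtype replicates 1 to 5, where the count of 0 in replicate 1 allows up to 0.385 CPM at a floor of 3 counts, and 5.58, 3.36, 2.30 and 2.91 in *Atf4* null replicates 1 to 4. The groups overlapped, and at 0 to 56 counts per library the fit left a wide range, a log2 fold change of 0.80 with 2 standard errors from -0.76 to 2.36 (adjusted p = 0.652, edgeR), which includes the size of the change of *Bbc3*. That width turned on 1 library. Without wildtype replicate 1, which held the count of 0, the log2 fold change was 0.48 and 2 standard errors reached from -0.62 to 1.58, which leaves out 1.80.

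Of the 3 survival genes none passed the test in edgeR, 1 (*Bcl2l1*) having an unadjusted p under 0.05, and with DESeq2 none passed either. *Mcl1* (ENSMUSG00000038612, chromosome 3 from 95566026 to 95570487 on the plus strand) encodes a short-lived survival protein. Its CPM were 121 to 135 in wildtype (127 ± 5.17, SD, n = 5) and 129, 137, 158 and 150 in *Atf4* null replicates 1 to 4. Of the *Atf4* null libraries, 3 lay above all wildtype libraries, and without wildtype replicate 5, the one at 135 CPM, all 4 did. The log2 fold change was 0.17 with 2 standard errors from -0.03 to 0.38 (adjusted p = 0.393, edgeR), which leaves out a doubling. *Bcl2* (ENSMUSG00000057329, chromosome 1 from 106465908 to 106642060 on the minus strand), the founding member, was at 37.9, 28.6, 33.1, 37.1 and 31.9 CPM in wildtype and 35.6, 52.6, 40.4 and 26.4 CPM in *Atf4* null replicates. Its *Atf4* null range contains the whole wildtype range (log2 fold change 0.20, 2 standard errors from -0.19 to 0.59, adjusted p = 0.651, edgeR).

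*Bcl2l1* (ENSMUSG00000007659, chromosome 2 from 152622582 to 152673655 on the minus strand) encodes BCL-xL and, by alternative splicing, the death-promoting BCL-xS, which counts per gene do not separate. Its CPM were 64.7, 66.8, 58.1, 63.7 and 33.8 in wildtype and 62.9, 78.0, 82.6 and 97.1 in *Atf4* null replicates. Wildtype replicate 5 stood far below the other 8 libraries, and among the rest only *Atf4* null replicate 1 lay within the wildtype range. With all libraries the log2 fold change was 0.48 (standard error 0.19, unadjusted p = 0.0263, adjusted p = 0.181, edgeR). Without wildtype replicate 5 it was 0.34 with an adjusted p of 0.177 from edgeR, within a range of 0.039 to 0.353 over the alternatives. It passed the threshold only when libraries were scaled by size alone, with a log2 fold change of 0.60, and that scaling also moves the median of all genes to 0.125.

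**Figure D3:**
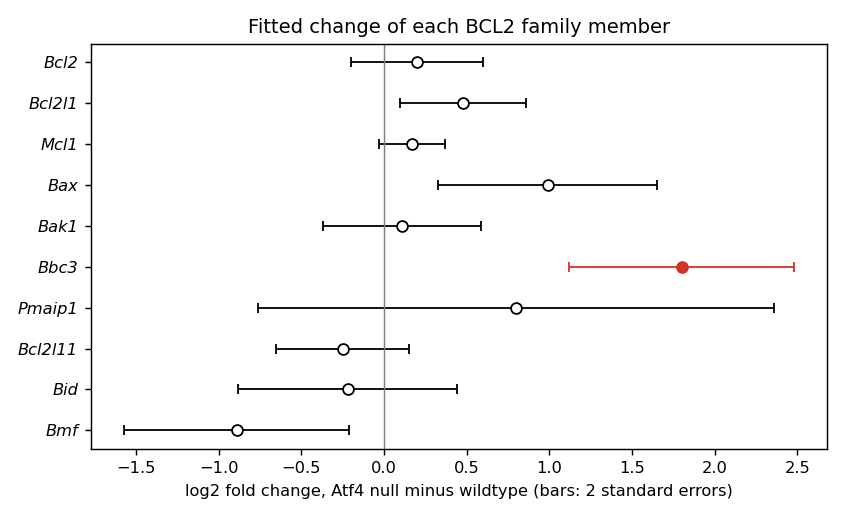
Fitted log2 fold change of each member, Atf4 null minus wildtype, with bars of 2 standard errors (edgeR's quasi-likelihood fit, 4 against 5 libraries; filled, adjusted p below 0.05). Bbc3, at 1.80, is the only filled point, and the bars of Bax, Bcl2l1 and Bmf also leave out 0.

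Levels were compared between genes per length, as FPKM (CPM divided by the summed exon length in kilobases). In wildtype lenses *Mcl1* had the highest level, 36.5 FPKM, followed by *Bcl2l1* at 11.2 and *Bak1* at 8.18 FPKM. *Bcl2*, *Bcl2l11*, *Bax* and *Bmf* had mean levels between 2.69 and 3.66 FPKM, and *Bid*, *Bbc3* and *Pmaip1* were at 1.38, 1.10 and 0.744 FPKM. In this order *Mcl1* was separate from *Bcl2l1* and *Bak1* from *Bcl2* in all 5 wildtype libraries, whereas every other pair of neighbours overlapped. For *Bcl2l1* and *Bak1* the overlap came from wildtype replicate 5 alone, with *Bcl2l1* at 6.59 FPKM there against 11.3 FPKM or more in replicates 1 to 4, all above the highest *Bak1* value, 9.18 FPKM. By mean level *Bbc3* was at rank 9 of 10 in wildtype and rank 6 in *Atf4* null lenses, at 3.84 FPKM, and *Bax* at rank 6 and rank 4, at 5.45 FPKM. In *Atf4* null libraries *Mcl1* alone was separate from its neighbour, and the ranges of *Bax*, *Bcl2* and *Bbc3* overlapped, so these ranks hold for the means only. *Bak1* had a higher level than *Bax* in all 9 libraries, by 2.55 to 4.06 times in wildtype and by 1.12 to 3.55 times in *Atf4* null libraries.

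Summed over the 5 BH3-only genes, the level was 8.35 to 9.67 FPKM in wildtype and 9.29 to 11.5 FPKM in *Atf4* null libraries, which overlap. *Bbc3* made up 7.7% to 17.1% of it in wildtype and 22.3% to 50.4% in *Atf4* null libraries, without overlap, and *Bmf* 15.5% to 42.3% and 10.3% to 19.4%, with overlap. The ratio of *Bbc3* to *Bcl2l11*, in FPKM, was 0.214 to 0.541 in wildtype and 0.765 to 2.80 in *Atf4* null libraries. Among the survival genes *Mcl1* made up 67.5% to 79.4% of the sum in wildtype (at most 71.0% without replicate 5) and 65.2% to 69.7% in *Atf4* null libraries. The survival sum was 48.8 to 52.6 FPKM in wildtype (51.3 or more without replicate 5) and 53.1 to 65.8 FPKM in *Atf4* null libraries, without overlap. These shares and sums follow from the values of single members and were not tested.

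**Figure D4:**
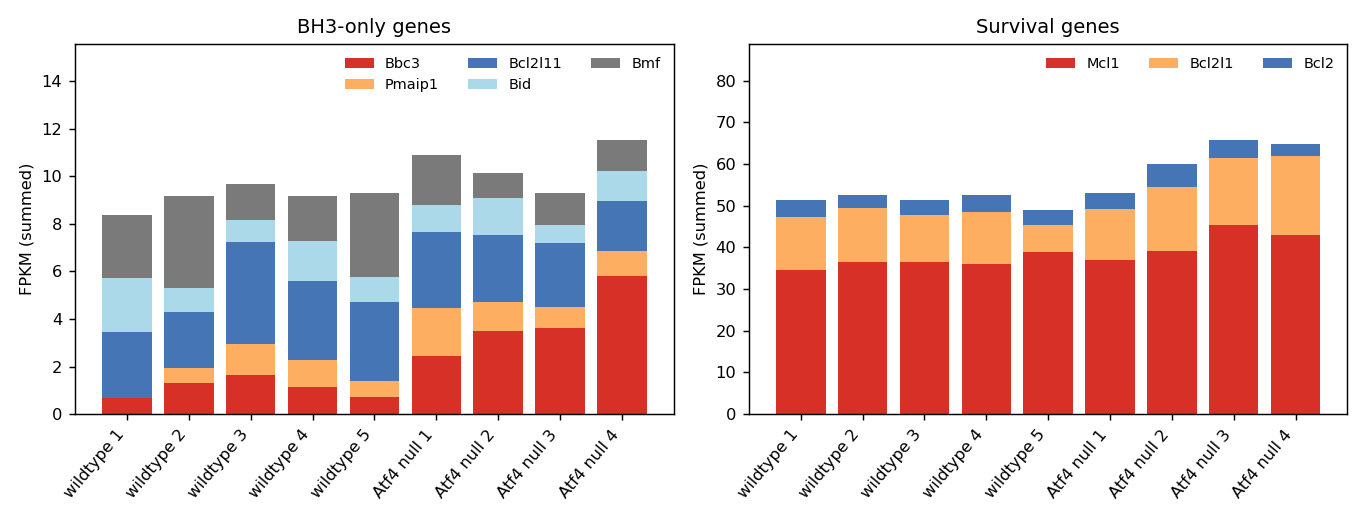
FPKM of the 5 BH3-only genes (left) and of the 3 survival genes (right) stacked for each library. The red Bbc3 segment takes 22.3% to 50.4% of the BH3-only stack in the Atf4 null libraries and 7.7% to 17.1% in wildtype, while the height of the stack overlaps between genotypes.

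Around the members, 6 lists of cell death genes were examined. Of their 68 genes, 59 were tested and 11 passed, 6 higher and 5 lower in *Atf4* null lenses, where 5.9% of all genes passed, 2.23% higher and 3.67% lower. The 6 higher calls became 2 without *Atf4* null replicate 2 and 3 without *Atf4* null replicate 3 or wildtype replicate 2, and the 5 lower calls became 3 without wildtype replicate 2. In the list of genes that regulate BH3-only transcription or act on P53, 5 of 10 tested passed, with a median log2 fold change of 0.52 over the list. *Ddit3*, which encodes the stress factor CHOP, rose from 4.66 ± 3.09 CPM (SD, n = 5) to 43.1 ± 13.5 CPM (SD, n = 4), or 3.20 on the log2 scale (standard error 0.42, in edgeR adjusted p = 0.000581). *Mdm2*, the ubiquitin ligase of P53 and itself a P53 target, rose 1.67-fold with overlapping groups (adjusted p = 0.0197, edgeR), *Jun* 1.59-fold (0.0208) and *Foxo3* 1.48-fold (0.0212). These 3 calls were less firm than that of *Ddit3*. *Mdm2* no longer passed without any of *Atf4* null replicates 2, 3 and 4 or wildtype replicates 1 and 3 (edgeR, adjusted p from 0.0501 to 0.087). *Foxo3* no longer passed without any of *Atf4* null replicates 2 and 3 or wildtype replicates 1, 2 and 3 (edgeR, 0.0513 to 0.0943), nor *Jun* without any of *Atf4* null replicate 2 or wildtype replicates 2, 3 and 4 (edgeR, 0.0548 to 0.0682). *Rps19bp1*, the gene next to *Atf4* whose product AROS acts on the P53 deacetylase SIRT1, fell by 1.13 on the log2 scale (adjusted p = 0.0287, edgeR), but no longer passed in 6 of 17 alternatives, with libraries scaled by size alone (edgeR, adjusted p = 0.0583) and without any of *Atf4* null replicates 1, 3 and 4 or wildtype replicates 1 and 2 (adjusted p from 0.0599 to 0.088). *Trp53* itself averaged 27.1 ± 3.34 CPM (SD) over the wildtype and 37.4 ± 1.14 CPM (SD) over the *Atf4* null libraries, without overlap, with a log2 fold change of 0.46 and an adjusted p of 0.104 (edgeR), which did not pass.

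Of the other BCL2 family genes, 2 of 8 tested passed, both lower, against 3.67% of all genes, with a median log2 fold change of -0.18 over the list. *Bnip3*, a mitochondrial protein gene of mitophagy, went from 54.5 ± 10.3 CPM (SD, n = 5) to 25.9 ± 0.987 CPM (SD, n = 4), or -1.07 on the log2 scale (standard error 0.17, in edgeR adjusted p = 0.002). *Bcl2l13*, also a mitophagy receptor, went from 227 ± 57.2 CPM (SD, n = 5) to 114 ± 5.4 CPM (SD, n = 4), or -0.99 on the log2 scale (standard error 0.18, in edgeR adjusted p = 0.0052). The value of *Bcl2l13* in wildtype replicate 5, 133 CPM, was close to the *Atf4* null range of 108 to 120 CPM, and the other wildtype libraries were at 222 CPM or more. The survival gene *Bcl2l2*, which encodes BCL-w, did not pass (log2 fold change 0.06, standard error 0.25). The remaining 7 genes had too few counts to be tested. Of these *Bcl2a1a*, *Bcl2a1b* and *Bcl2a1d* were at 0 in every library, but they are near-identical copies and reads with more than 1 alignment may not have been counted.

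In the list of apoptosome, caspase and nuclease genes 1 of 14 passed, against 5.9% of all genes, with a list median of -0.08. *Pidd1*, a P53 target whose product activates caspase-2, rose 3.06-fold from 5.69 ± 3.11 CPM (SD, n = 5) to 17.4 ± 3.09 CPM (SD, n = 4) (edgeR, log2 fold change 1.61 with standard error 0.40, adjusted p = 0.0302), though its adjusted p was 0.052 to 0.107 when any of *Atf4* null replicates 1, 2 and 3 or wildtype replicate 2 was left out. *Apaf1*, the scaffold of the apoptosome, had a log2 fold change of 0.53 (adjusted p = 0.191, edgeR). Of 6 inhibitors of apoptosis 1 passed, against the same 5.9%. *Birc7*, which encodes livin, fell by 1.79 on the log2 scale (standard error 0.34, adjusted p = 0.00699, edgeR), from 28.3 ± 7.95 CPM (SD, n = 5) to 8.2 ± 3.99 CPM (SD, n = 4). *Xiap*, the inhibitor that binds caspases most directly, was at 59.3 ± 4.53 CPM (SD, n = 5) and 60.8 ± 2.65 CPM (SD, n = 4), a log2 fold change of 0.04 (standard error 0.12).

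Among 9 death receptor genes 1 passed, against 5.9% of all genes, with a list median of 0. *Tnfrsf10b*, the death-signalling mouse receptor for the ligand TRAIL and a gene that both P53 and CHOP are known to control, was at 15.0, 15.2, 22.4, 17.8 and 10.4 CPM in wildtype and 30.2, 40.1, 49.9 and 55.2 CPM in *Atf4* null replicates. The groups did not overlap, with a log2 fold change of 1.44 (standard error 0.24, in edgeR adjusted p = 0.00314). *Fas*, another receptor gene, had a log2 fold change of -0.27 (adjusted p = 0.845, edgeR). Of 12 genes for binding partners and turnover of BCL2 proteins, 1 passed, against the same 5.9%, with a list median of -0.03. *Tmbim6*, which encodes the endoplasmic reticulum protein BAX inhibitor-1, fell by 0.54 on the log2 scale (standard error 0.12, adjusted p = 0.0177, edgeR), and its adjusted p was 0.0511 to 0.0582 when any of *Atf4* null replicate 2 and wildtype replicates 2 and 4 was left out.

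**Figure D5:**
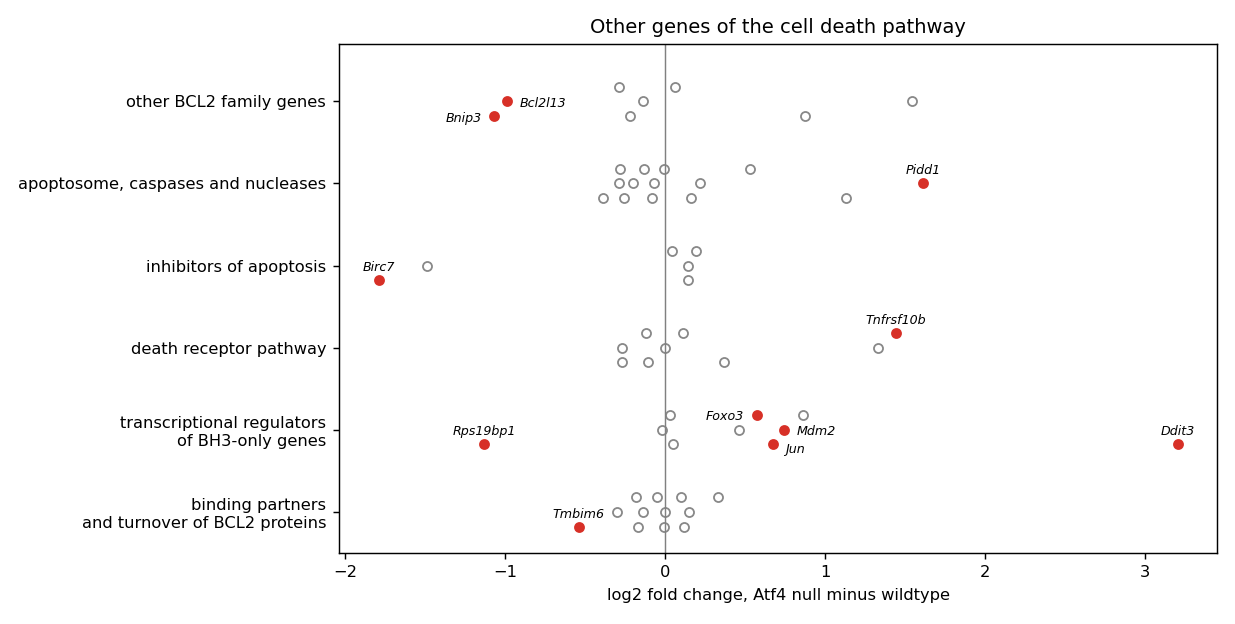
Log2 fold change, Atf4 null minus wildtype, of the 59 tested genes of the 6 cell death lists (filled and named, adjusted p below 0.05 in edgeR's quasi-likelihood test; open, not called). Most open points lie near 0, and the 11 filled points run from -1.79 for Birc7 to 3.20 for Ddit3.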

How the data were processed

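Lens libraries were deposited as 1 table of gene counts per sample. According to the study's methods, reads were adapter-trimmed (Trim Galore), ribosomal reads were discarded after alignment to RN45S (HISAT2), and what remained was aligned to GRCm39 and counted per Ensembl gene (HTSeq). The counts the authors deposited are whole reads per gene without normalization. HTSeq's 5 summary entries, 44.6% to 47.7% of the reads of a library, were left out. Symbols, positions and exon lengths came from GENCODE vM39, of the same build, which names 54749 of the 55416 genes. Wildtype titles and count tables name different libraries, so their replicate numbers, taken from the titles, are uncertain within that genotype. The series describes the samples as biological replicates.

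With edgeR 4.0.16 in R 4.3.3, filterByExpr chose the genes, TMM factors set the scale, and the quasi-likelihood F test, without covariates, compared the genotypes. P-values were adjusted over the 14903 genes kept, and 880 fell below 0.05. Standard errors were derived from the fitted change and its F statistic. The permutation test used log2 CPM with a prior count of 2. The alternatives were DESeq2 1.42.0, exactTest, other scalings, filters and dispersions, the replicate number as a block, and each library left out in turn. The procedure was tested on simulated data.

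The members and the lists were chosen with earlier results of these data known. Named are all members, the called genes of each list, and others singled out after their values were seen (*Trp53*, *Bcl2l2*, *Apaf1*, *Xiap* and *Fas*). Motifs were searched on both strands with Python 3.11.15 and were also chosen with results known. TGANTCA reads the same on both strands.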

Additional observations from a re-analysis of the deposited data

Results flagged for a closer look

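Of the 20 groups examined, 10 members in each genotype, 1 was set apart by a single library. In wildtype replicate 5, *Bcl2l1* was at 33.8 CPM, and the other 4 wildtype libraries lay between 58.1 and 66.8 CPM, so that the gap to the nearest of them took 0.735 of the range of the group, above the critical value of 0.71 for 5 samples. About 1 in 20 groups is set apart in this way by chance. This is also the library in which the 12 lens fiber markers summed to 72500 CPM and the skeletal muscle and mesenchyme markers to 4640 and 14400 CPM. Their part in the low value was not tested.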

How the results depend on the processing

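The count of members with an adjusted p below 0.05 was 1 in 16 of 17 alternatives and 2 (*Bbc3* and *Bcl2l1*) with libraries scaled by size alone, which also moved the share of calls that were higher from 37.8% to 64.3%. With each library left out in turn it stayed at 1. For the pathway lists the count of 11 ran from 6, without *Atf4* null replicate 2 or wildtype replicate 2, to 11, and was 7 without *Atf4* null replicate 3. Of 169 values of the members' log2 fold changes, 166 kept their direction and side of the threshold. The exceptions were *Bcl2l1* under size scaling, and *Bak1* and *Bid*, which changed sign without *Atf4* null replicate 2 (-0.11) and wildtype replicate 1 (0.03) and were never called. Over all genes, 880 calls became 1397 with DESeq2, 527 and 562 without *Atf4* null replicates 2 and 3, and 570 and 562 without wildtype replicates 2 and 3. Same-numbered libraries did not deviate together (correlations from -0.13 to 0.01, and 0 of 8 libraries correlated best with their own number), and with the replicate block, which leaves out wildtype replicate 5, 1 member and 11 pathway genes passed. Replicate numbers come from the sample titles and are uncertain in wildtype, so neither the correlations nor the block can find pairs of littermates. The causes of the shifts in the counts were not tested. The standard error of *Pmaip1* was 0.78, 0.55 without wildtype replicate 1 and 0.81 to 0.90 without any other library, and with at least 10 counts required in every library it gave no value.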

Other observations

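Of the 14903 genes tested, those whose log2 CPM followed *Bbc3* most closely over the 9 libraries were *Zfp24* (Pearson's r = 0.980), *Tomm70a* (0.971), *Cebpg* (0.970), *Ppp1r12a* (0.968) and *Tnfrsf10b* (0.968). All 5 were called higher in *Atf4* null lenses, with log2 fold changes of 0.88, 0.52, 0.93, 0.50 and 1.44 (edgeR). The correlations are a description over 9 libraries that share the genotype difference, and carry no test.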
